A study of Homo sapiens with 6 samples.

Results

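The licensing genes MCM2, MCM3, MCM4, MCM5 and CDC6 were taken by symbol from a qPCR array of cell cycle genes, on which they are 5 of the 84 genes tested. All 5 were measured in all 6 samples, and no filter on low values was applied. The samples are HMC-1.2 cells, a neoplastic human mast cell line whose KIT gene carries D816V and, as the sample labels write it, V560G. Both changes are shared by every group. The cells were treated for 24 h with 5 µM SPHK1-I (SKI-178, an inhibitor of sphingosine kinase 1), with 50 µM SPHK2-I (ABC294640, an inhibitor of sphingosine kinase 2) or with 0.1% DMSO as vehicle, with 2 samples in each group. The inhibitor doses differ, so a difference between the inhibitors is not one at a matched dose. No source used here says whether the 2 samples of a group were separate cultures, so the p-values measure only the spread between these samples. The cell line could not be checked by its markers, since 0 of 5 mast cell genes looked for are on the array.

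Before S phase, origins of replication are licensed when the origin recognition complex, CDC6 and CDT1 load the MCM complex onto DNA as an inactive ring. The MCM complex is the core of the replicative helicase and is built from the subunits MCM2 to MCM7 in equal number, so each subunit is needed for the whole. Cyclin-dependent kinases then help to fire the loaded helicases and block new loading until the next cycle. Transcription of MCM and CDC6 genes in late G1 is a well-known target of E2F factors, which the RB family holds in check. The array holds 4 of the helicase subunits and the loader CDC6.

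RefSeq promoters were available here for 3 of the 5 genes, and they are shown because each carries a word of the E2F type close to its annotated start. The windows run from 200 bases before to 20 bases after the start on GRCh38.p14, 5′ to 3′ on the strand of the gene, with the E2F-type words in capitals on whichever strand they lie.
MCM2, chr3:127598211-127598430, plus strand: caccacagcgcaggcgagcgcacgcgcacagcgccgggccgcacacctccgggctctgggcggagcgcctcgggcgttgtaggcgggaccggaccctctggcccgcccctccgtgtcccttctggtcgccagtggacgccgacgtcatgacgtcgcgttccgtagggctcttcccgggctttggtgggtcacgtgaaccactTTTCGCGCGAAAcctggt
MCM3, chr6:52284723-52284942, minus strand: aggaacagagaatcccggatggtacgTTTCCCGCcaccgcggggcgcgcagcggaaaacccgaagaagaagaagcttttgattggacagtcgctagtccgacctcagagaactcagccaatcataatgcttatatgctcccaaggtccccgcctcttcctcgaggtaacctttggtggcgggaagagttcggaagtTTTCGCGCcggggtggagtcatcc
CDC6, chr17:40287679-40287898, plus strand: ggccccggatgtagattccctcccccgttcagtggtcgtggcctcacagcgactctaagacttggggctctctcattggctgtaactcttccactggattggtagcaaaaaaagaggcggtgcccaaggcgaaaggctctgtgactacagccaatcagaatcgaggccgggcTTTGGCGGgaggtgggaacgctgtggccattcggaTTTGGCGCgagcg
The words searched were TTTCCCGC, TTTCCCGG, TTTCGCGC, TTTCGCGG, TTTGCCGC, TTTGCCGG, TTTGGCGC and TTTGGCGG on both strands of the 300 bases from 250 before to 50 after the start. Counting the first base of the gene as 1, MCM2 held TTTCGCGC at 3 to 10 and again, overlapping it on the other strand, at 7 to 14. MCM3 held TTTCCCGC from -174 to -167 and TTTCGCGC from -4 to 4, and CDC6 held TTTGGCGG from -28 to -21 and TTTGGCGC at 8 to 15. At least 1 of these 8 words was found in 6.19% of the 35116 promoters of the table and in 13 of the 68 array genes that have a promoter there (19.1%). A narrower form, the 4 words that end in C, was tried after the matches in these genes had been seen. It also matched 3 of the 3 promoters, and 3.31% of all promoters and 9 of the 68 array genes. The word CCAAT, on either strand, was in the promoters of MCM3 and CDC6 (3 matches each) and not in that of MCM2, against 34.6% of all promoters and 36 of the 68 array genes (52.9%). Leaving out the licensing genes, 3 of the 10 array genes with one of the 8 words and 16 of the 55 without one were lower with SPHK1-I by the test described below. These matches describe letters in a window and do not show that a factor binds there.

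The array reports a threshold cycle (Ct), a log2 measure in which a later cycle means less mRNA. ΔCt subtracts from it the mean of 4 reference genes in the same sample (B2M, GAPDH, HPRT1, RPLP0), and the relative level is 2 to the power of minus ΔCt, given here multiplied by 1000. Changes are differences in mean −ΔCt (log2), tested with limma in 1 model of the 6 samples with Benjamini-Hochberg adjustment over the 84 genes. A gene counts as lower or higher at an adjusted p below 0.05. SPHK1-I sample 2 stood apart in its Ct values, with a median of 29.5 over the 84 genes against 27.0 to 28.0 in the other 5 samples. Its reference genes had a mean Ct of 24.3 against 22.1 to 22.7, while the wells that control reverse transcription and PCR lay at 24.06 to 24.47 and 21.35 to 21.88 over all samples. In that sample MCM4 and CDC6 were above a Ct of 30, and in no other sample was any of the 5 genes above it. Less mRNA per cell and fewer cells in the phase that expresses a gene cannot be told apart in RNA from whole cultures.

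All 5 licensing genes were lower with SPHK1-I than with vehicle, 4 of them by 2.15-fold to 2.28-fold and MCM5 by 1.68-fold. Over all 84 genes 31.0% were called lower in this comparison, and the median change of the 5 genes was −1.13 against −0.35 for the 84. CDC6, the loader, had a relative level of 21.7 and 16.4 per 1000 in the SPHK1-I samples, against 41.6 and 44.3 per 1000 in the vehicle samples. Its mean was 19.1 ± 3.81 with SPHK1-I and 43.0 ± 1.92 with vehicle (SD, n = 2 each), a log2 change of −1.19 (standard error 0.19, adjusted p = 0.00729 from limma). This was the second lowest change on the array.

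Among the helicase subunits, MCM4 had the lowest level and, by its point value, the largest change with SPHK1-I. Its relative level was 15.2 and 13.0 per 1000 in the SPHK1-I samples and 32.6 and 31.0 per 1000 in the vehicle samples, a log2 change of −1.18 (standard error 0.16, adjusted p = 0.00603 from limma). MCM3 had 38.1 and 29.3 per 1000 with SPHK1-I and 71.6 and 74.4 per 1000 with vehicle, a log2 change of −1.13 (standard error 0.18, adjusted p = 0.00729 from limma). MCM2, whose protein pairs with MCM5 at the gate through which DNA enters the ring, had 43.5 and 31.7 per 1000 with SPHK1-I and 74.2 and 86.0 per 1000 with vehicle. Its log2 change was −1.10 (standard error 0.20, adjusted p = 0.00729 from limma). CDC6, MCM4, MCM3 and MCM2 thus held ranks 2 to 5 among the 84 genes ordered from the lowest change. MCM5 held rank 20. It had 73.6 and 74.6 per 1000 with SPHK1-I and 129.1 and 120.0 per 1000 with vehicle, and its log2 change was −0.75 (standard error 0.16, adjusted p = 0.0121 from limma).

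Both SPHK1-I samples lay below both vehicle samples for all 5 genes, as they did for 57.1% of the 84 genes. The SPHK1-I duplicates were further apart than the others. For MCM2, MCM3, MCM4 and CDC6, sample 2 was the lower one, by 0.23 to 0.46 on the log2 scale, and for MCM5 the duplicates differed by 0.02. Without SPHK1-I sample 2 the log2 changes were −0.88 for MCM2, −0.94 for MCM3, −1.06 for MCM4, −0.76 for MCM5 and −0.98 for CDC6. That group is then 1 sample, assumed to vary like the vehicle and SPHK2-I duplicates, and 35 of the 84 genes were called lower in that fit, the 5 among them. When either vehicle sample was left out, 0 of the 5 genes passed (adjusted p of 0.0911 to 0.116), 0 of the 84 genes passed, and the log2 changes of the 5 lay between −1.23 and −0.70.

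**Figure D1:**
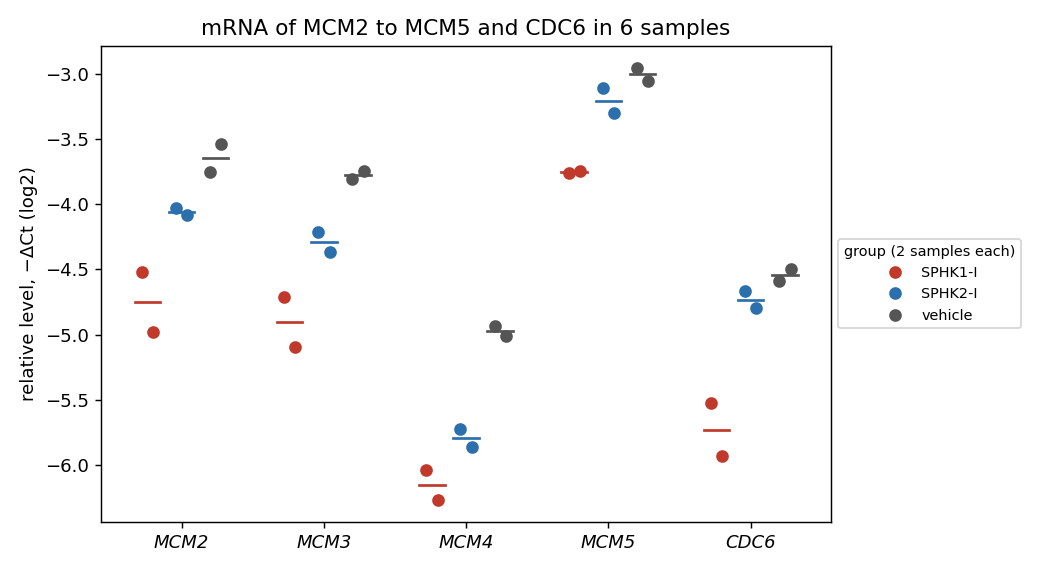
Relative mRNA level (−ΔCt, log2, vertical axis) of the 5 licensing genes in each sample, with SPHK1-I left, SPHK2-I in the middle and vehicle right; points are samples and lines are means of 2 samples. For every gene the SPHK1-I samples sit lowest and the vehicle samples highest, with no overlap between any pair of groups, although with ACTB alone as reference the SPHK2-I means of MCM2, MCM3, MCM5 and CDC6 are above those of vehicle.

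With SPHK2-I, MCM4 was the 1 licensing gene that passed the test, 1.77-fold lower than with vehicle. Over the 84 genes 23.8% were called lower here, and the median change of the 5 genes was −0.41 against −0.25 for all 84. MCM4 had 18.9 and 17.2 per 1000 with SPHK2-I, against 32.6 and 31.0 per 1000 with vehicle. The means were 18.04 ± 1.19 with SPHK2-I and 31.8 ± 1.17 with vehicle (SD, n = 2 each), and the log2 change was −0.82 (standard error 0.16, adjusted p = 0.0106 from limma).

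The other subunits and CDC6 did not pass. MCM3 had 53.8 and 48.4 per 1000 with SPHK2-I, against 71.6 and 74.4 per 1000 with vehicle (log2 −0.52, 95% interval −0.94 to −0.09, adjusted p = 0.0697 from limma). MCM2 had 61.2 and 58.9 per 1000 with SPHK2-I, against 74.2 and 86.0 per 1000 with vehicle (log2 −0.41, 95% interval −0.88 to 0.05, adjusted p = 0.157 from limma). Both genes had SPHK2-I samples below the vehicle samples, with values between those of the other groups. For MCM5, 115.9 and 101.3 per 1000 with SPHK2-I stood against 129.1 and 120.0 per 1000 with vehicle (log2 −0.20, 95% interval −0.57 to 0.17, adjusted p = 0.359 from limma). CDC6 had 39.4 and 36.0 per 1000 with SPHK2-I, against 41.6 and 44.3 per 1000 with vehicle (log2 −0.19, 95% interval −0.63 to 0.25, adjusted p = 0.443 from limma). Relative to the 4 reference genes, the SPHK2-I samples of all 5 genes lay below the vehicle samples, as did those of 60.7% of the 84 genes, but for every gene except MCM4 the direction turned with ACTB alone as reference. The MCM4 call was lost when any 1 vehicle or SPHK2-I sample was left out (log2 changes of −0.89 to −0.75, adjusted p of 0.0737 to 0.129). When either SPHK1-I sample was left out, which leaves that group out of the shared estimate of the spread, MCM2, MCM3 and MCM4 passed, 3 of the 5 genes, but so did 42 of all 84 in the same direction.

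The difference between the inhibitors was tested directly. CDC6, MCM2, MCM3 and MCM5 were higher with SPHK2-I than with SPHK1-I, 4 of the 5 genes, where 15.5% of the 84 genes were called higher. The difference was widest for CDC6, at 39.4 and 36.0 per 1000 with SPHK2-I and 21.7 and 16.4 per 1000 with SPHK1-I (log2 1.00, standard error 0.19, adjusted p = 0.0113 from limma). MCM2 differed by 0.69, MCM3 by 0.61 and MCM5 by 0.55 on the log2 scale (each adjusted p = 0.0404 from limma). MCM4 was 18.9 and 17.2 per 1000 with SPHK2-I and 15.2 and 13.0 per 1000 with SPHK1-I, and its difference of 0.36 did not pass (95% interval −0.03 to 0.74, adjusted p = 0.147 from limma). All 5 genes had both SPHK2-I samples above both SPHK1-I samples, as did 34.5% of the 84 genes. Leaving out any vehicle or SPHK2-I sample removed all 4 calls, in fits where 0 of the 84 genes passed in limma (1 to 4 of the 5 had an unadjusted p below 0.05). The differences themselves are the same without a vehicle sample, and without an SPHK2-I sample they were 0.93 or 1.06 for CDC6, 0.67 or 0.72 for MCM2, 0.54 or 0.69 for MCM3 and 0.45 or 0.65 for MCM5. Without SPHK1-I sample 2 the differences were 0.79 for CDC6, 0.46 for MCM2, 0.42 for MCM3, 0.56 for MCM5 and 0.24 for MCM4, and 4 of the 5 and 19 of the 84 genes were called higher.

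**Figure D2:**
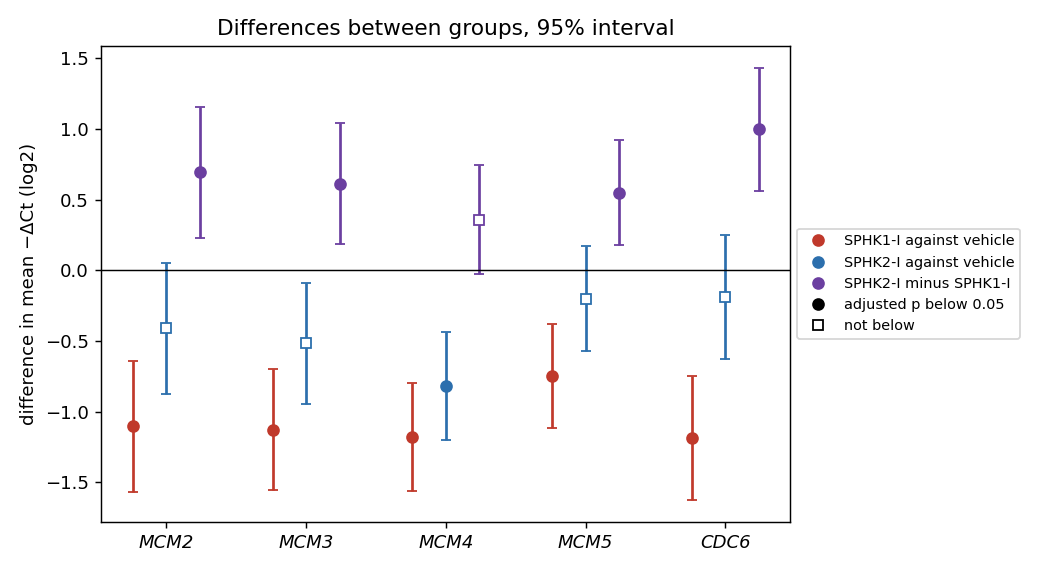
Differences in mean −ΔCt (log2, vertical axis) for each licensing gene in the 3 comparisons, with 95% intervals from limma; filled circles have an adjusted p below 0.05 and open squares do not. The 5 SPHK1-I changes lie between −1.19 and −0.75, and of the SPHK2-I changes that of MCM4, at −0.82, is the filled one.

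The levels above rest on the reference genes, which themselves moved. Set against their own mean, B2M had log2 differences from vehicle of 0.61 in SPHK1-I samples and 0.42 in SPHK2-I samples, and HPRT1 had −0.35 in SPHK1-I samples and −0.52 in SPHK2-I samples. With each of the 5 housekeeping genes in turn as the only reference, the change of CDC6 with SPHK1-I ran from −1.80 to −0.84 and that of MCM4 from −1.79 to −0.83. Those of MCM3 ran from −1.74 to −0.78, of MCM2 from −1.71 to −0.76 and of MCM5 from −1.36 to −0.40. All 5 genes were thus below vehicle in SPHK1-I samples under every single reference, although with RPLP0 alone 0 of them passed the test (log2 −1.22 to −0.78, adjusted p of 0.122 to 0.150 from limma), nor was any of the 84 genes called lower there. MCM5 also lost its call with ACTB, GAPDH or HPRT1 alone (log2 −0.45, −0.45 and −0.40, adjusted p of 0.202, 0.0963 and 0.0887) and with B2M left out of the reference (log2 −0.55, adjusted p = 0.0686), while the other 4 genes kept theirs. With SPHK2-I, MCM4 kept its direction under every single reference (−1.24 to −0.27), and MCM2, MCM3, MCM5 and CDC6 had values on both sides of 0. The MCM4 call was lost with ACTB alone (log2 −0.27, adjusted p = 0.228 from limma) and with HPRT1 alone (log2 −0.30, adjusted p = 0.127 from limma), and kept with B2M, GAPDH or RPLP0 alone. MCM5 ran from −0.62 to 0.35 and CDC6 from −0.61 to 0.36, lowest with B2M and highest with ACTB. With SPHK2-I, therefore, no direction is given for MCM2, MCM3, MCM5 and CDC6.

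**Figure D3:**
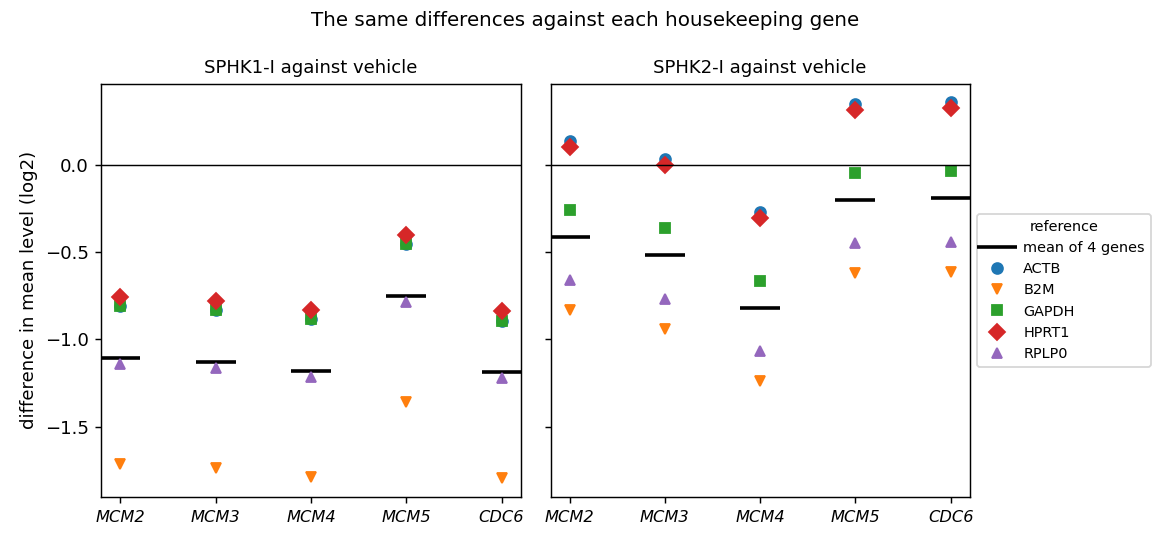
Difference from vehicle (log2, vertical axis) for each licensing gene with SPHK1-I (left panel) and SPHK2-I (right panel), computed against the mean of 4 reference genes (black bars) or each housekeeping gene alone (symbols). With SPHK1-I all symbols lie below 0, from −1.80 to −0.40, and with SPHK2-I only MCM4 has all of its symbols below 0.

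Ratios between the 5 genes in 1 sample need no housekeeping gene, since the reference cancels. The order of relative levels was MCM5, MCM2, MCM3, CDC6 and MCM4, from high to low, in all 6 samples. This order compares different assays, whose efficiencies can differ, so it is a description. MCM2 and MCM3 were neighbours that stayed together, with MCM2 above MCM3 by 0.19 and 0.11 in SPHK1-I samples, 0.19 and 0.28 in SPHK2-I samples and 0.05 and 0.21 in vehicle samples (log2). That range of 0.23 over the 6 samples was the smallest among the 10 pairs, and the gaps between the 2 genes are no wider than the spread of their duplicates in the SPHK1-I group. The largest range, 0.75, was that of MCM5 over MCM2.

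The ratio of CDC6 to MCM4 set the SPHK2-I samples apart. CDC6 was above MCM4 by 1.06 and 1.06 on the log2 scale in SPHK2-I samples, by 0.51 and 0.33 in SPHK1-I samples and by 0.35 and 0.52 in vehicle samples. As folds of the group means, CDC6 was 2.09 times MCM4 with SPHK2-I, 1.34 times with SPHK1-I and 1.35 times with vehicle. The SPHK1-I and vehicle samples overlapped in this ratio, although both genes were less abundant with SPHK1-I. CDC6 also came closer to MCM3 with SPHK2-I, where MCM3 exceeded it by 0.45 and 0.43, against 0.81 and 0.84 with SPHK1-I and 0.78 and 0.75 with vehicle (log2). MCM2 exceeded CDC6 by 0.64 and 0.71 with SPHK2-I, 1.00 and 0.95 with SPHK1-I and 0.83 and 0.95 with vehicle. Against MCM5, the SPHK2-I and vehicle samples overlapped. MCM5 exceeded CDC6 by 1.56 and 1.49 with SPHK2-I, 1.76 and 2.19 with SPHK1-I and 1.63 and 1.44 with vehicle. MCM5 exceeded MCM4 by 2.27 and 2.52 in SPHK1-I samples, by 2.62 and 2.56 in SPHK2-I samples and by 1.98 and 1.95 in vehicle samples, so the vehicle samples were lowest in that pair.

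**Figure D4:**
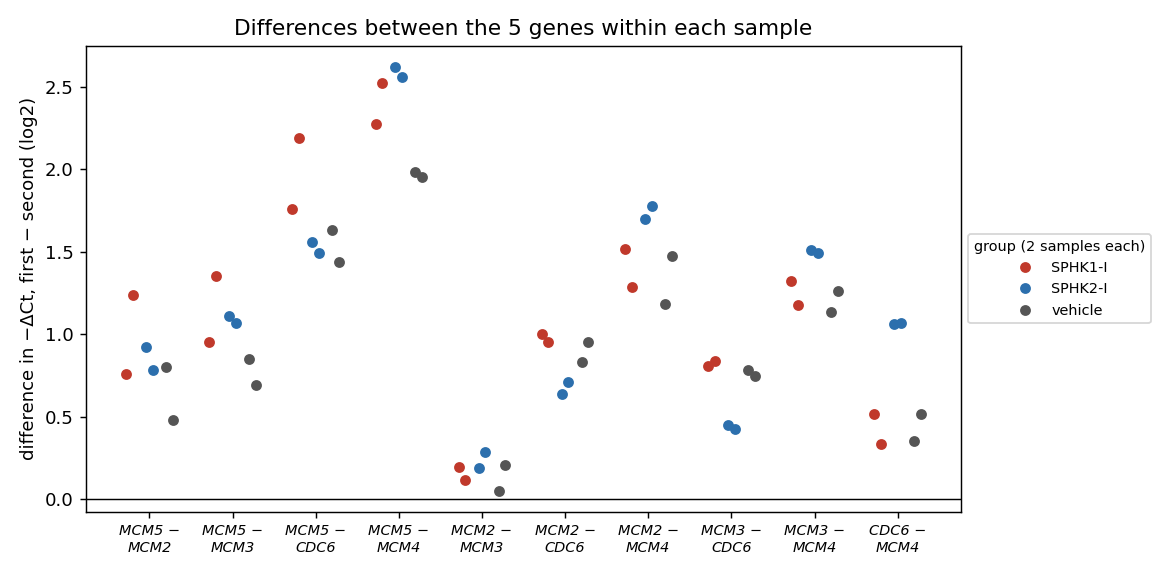
Difference in −ΔCt (log2, vertical axis) between the genes of each of the 10 pairs within a sample; points are samples, coloured by group. MCM2 minus MCM3 stays between 0.05 and 0.28 in all samples, and CDC6 minus MCM4 is 1.06 in both SPHK2-I samples against 0.33 to 0.52 in the others.

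Each gene was also tested against the mean Ct of the other 4, in 15 fits (5 genes and 3 comparisons), each over the 84 genes. With SPHK2-I against vehicle, MCM4 fell by 0.49 relative to the other 4 (standard error 0.10, adjusted p = 0.0137 from limma), where 20.2% of the 84 genes were called lower on that scale. Its values were −1.72 and −1.72 in SPHK2-I samples and −1.16 and −1.30 in vehicle samples. CDC6, at −0.40 and −0.39 in SPHK2-I samples and −0.72 and −0.65 in vehicle samples, had a difference of 0.30 that did not pass (adjusted p = 0.0561 from limma). MCM2, MCM3 and MCM5 did not pass either, with differences of 0.02, −0.11 and 0.28 (adjusted p of 0.949, 0.360 and 0.176 from limma). With only the groups compared in the fit, CDC6 and MCM5 did pass (adjusted p of 0.00866 and 0.0208 from limma). CDC6 also passed with the trend and robust options of limma (adjusted p = 0.0435). The shares of the 84 genes called in those fits are not given here.

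With SPHK1-I against vehicle 0 of the 5 ratios passed in limma, and 1, that of MCM5, had an unadjusted p below 0.05. MCM5 stood above the other 4 by 1.44 and 1.82 in SPHK1-I samples and by 1.32 and 1.14 in vehicle samples, a log2 difference of 0.40 (95% interval 0.00 to 0.80, adjusted p = 0.0621 from limma). It was 0.21 without SPHK1-I sample 2 and 0.60 without sample 1, each of which leaves 1 sample in that group. The other 4 differences lay between −0.15 and −0.04. In these fits 66.7% to 72.6% of the 84 genes were called, and all of these were higher. In the fit of MCM5 the count was 61 higher and 0 lower, the direction of its own difference. The licensing genes used as reference were themselves lower with SPHK1-I relative to the 4 reference genes, so this share is no neutral background.

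Between the inhibitors, CDC6 was 0.44 higher with SPHK2-I than with SPHK1-I relative to the other 4 genes (adjusted p = 0.0163 from limma), on a scale where 5.95% of the 84 genes were called higher. On that scale 39 of the 84 genes were called lower. The other 4 genes, its reference, themselves had higher means with SPHK2-I than with SPHK1-I, so the share called higher is no neutral background. MCM4 was lower by the same kind of measure (log2 −0.35, adjusted p = 0.0229 from limma), where 61.9% of the genes were called lower. The MCM4 call thus stands against a background in which most genes were called the same way, and it was lost with the replicate block (adjusted p = 0.0603) and with Ct limited to 30 (log2 −0.62, adjusted p = 0.09004). Both calls were lost when either SPHK2-I sample was left out (adjusted p of 0.0992 to 0.125), with differences of 0.44 and 0.45 for CDC6 and −0.35 in both cases for MCM4. The call of MCM4 against vehicle was lost when a vehicle or SPHK2-I sample was left out (log2 −0.56 to −0.42, adjusted p of 0.0599 to 0.117) and with Ct limited to 30 (log2 −0.49, adjusted p = 0.248).

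**Figure D5:**
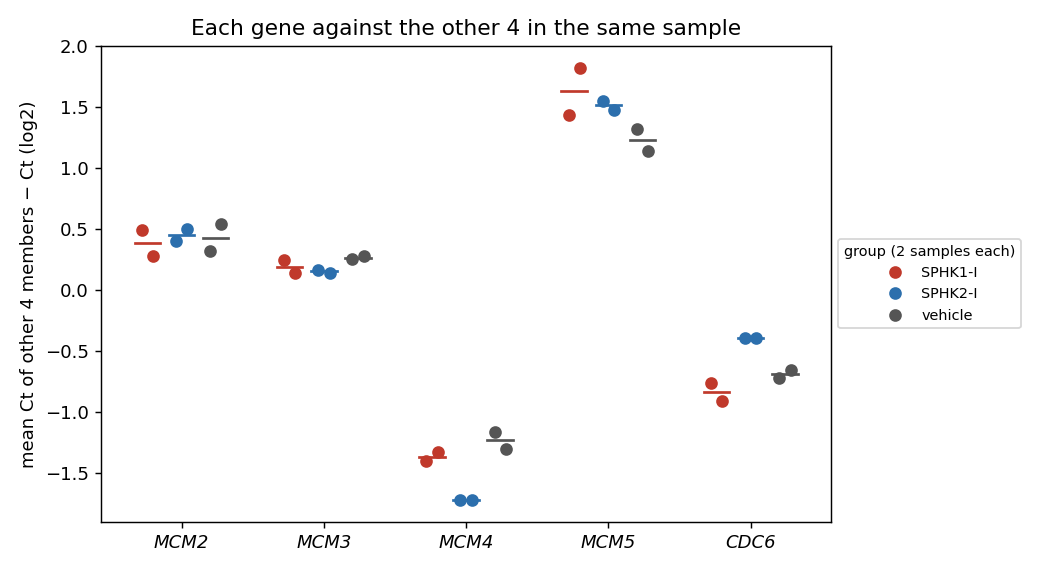
Level of each licensing gene relative to the mean of the other 4 in the same sample (log2, vertical axis, mean Ct of the other 4 minus Ct of the gene), which uses no housekeeping gene; points are samples and lines are means of 2 samples. MCM4 is at −1.72 in both SPHK2-I samples, below the other 4 samples, and CDC6 is at −0.40 and −0.39 there, above them.

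By the root mean square (RMS) difference of its profile over the 6 samples from the mean of the other 4 genes, MCM3 was the most typical of the 5 (0.057, log2), followed by MCM2 (0.096), CDC6 (0.190), MCM5 (0.210) and MCM4 (0.212). The median distance of the other 79 genes from the mean of the 5, a different centre, was 0.403. Of these 79 genes, 5 lay closer to that mean than CDC6 did to the mean of its other 4. The same count was 8 for MCM5, 9 for MCM4 and 0 for MCM2 and MCM3. The nearest of the 79 genes was CDK4, the G1 kinase that acts on RB, at 0.119. The next ones included CCNE1 (cyclin E1, partner of CDK2) at 0.141, BRCA1, which acts in DNA repair, at 0.161 and RB1 at 0.181. CDK4 had −ΔCt values of −3.64 and −3.76 with SPHK1-I, −3.04 and −3.12 with SPHK2-I and −2.89 and −2.85 with vehicle, so that SPHK1-I samples were the low ones, as for the licensing genes. Its log2 changes were −0.83 with SPHK1-I and −0.21 with SPHK2-I, and it was 0.62 higher with SPHK2-I than with SPHK1-I. CDK4 was picked for its likeness to the 5 genes over these same samples. Its values therefore follow from that choice and are no separate support. These distances are a description over 6 samples that share 1 vehicle group.

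The other genes of the pathway were read from lists, with 23 genes in all. Over all 84 genes 31.0% were called lower with SPHK1-I (median log2 −0.35) and 23.8% with SPHK2-I (median −0.25). Of the 6 genes of the S phase kinase list, CDK2 and its partners and activators, 5 were lower with SPHK1-I (median log2 −0.88) and 4 with SPHK2-I (median −0.95). CDK2, which helps to fire licensed origins, had log2 changes of −0.91 in SPHK1-I samples (adjusted p = 0.00729 from limma) and −0.82 in SPHK2-I samples (adjusted p = 0.0106). SKP2, the ubiquitin ligase subunit that targets the CDK inhibitor p27, had −0.98 (adjusted p = 0.00729) and −1.13 (adjusted p = 0.00687). CCNA2, the cyclin of S phase and G2, ran the other way from the licensing genes between the inhibitors, with a lower level in SPHK2-I than in SPHK1-I samples (log2 −0.57, adjusted p = 0.0404 from limma).

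Of the 7 E2F, DP and RB family genes, 1 was lower with SPHK1-I, RB1 (log2 −0.94, adjusted p = 0.0314 from limma), and with SPHK2-I 0 passed in limma. RB1 had −ΔCt values of −4.55 in SPHK1-I sample 1 and −5.41 in SPHK1-I sample 2, against −4.07 and −4.00 with vehicle. Much of its change thus rests on SPHK1-I sample 2, which stood apart in its Ct values. The list medians were −0.55 and −0.29, against −0.35 and −0.25 for the 84 genes. E2F1, the activator best known at licensing genes, had −0.56 with SPHK1-I (adjusted p = 0.050, not below the threshold) and −0.13 with SPHK2-I (adjusted p = 0.621). Of the 6 replication checkpoint genes, CHEK1 (log2 −0.84, adjusted p = 0.0352) and RAD9A (log2 −0.90, adjusted p = 0.0114), a subunit of the checkpoint clamp, were lower with SPHK1-I. That count, 2 of 6, is near the share of 31.0% over the 84 genes. RAD9A was 1.11 higher with SPHK2-I than with SPHK1-I (adjusted p = 0.0103 from limma). Of the 3 genes listed for the anaphase-promoting complex, CDC20 was lower with SPHK2-I (log2 −1.19, adjusted p = 0.00956 from limma) and had 0.22 with SPHK1-I (adjusted p = 0.426). MKI67, a marker of cycling cells, was lower with both inhibitors, at −0.73 in SPHK1-I samples (adjusted p = 0.0153 from limma) and −1.001 in SPHK2-I samples (adjusted p = 0.00687). Its part in the licensing results was not tested. The 2 comparisons with vehicle share their vehicle samples.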

How the data were processed

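mRNA was measured on a SYBR qPCR array with 84 genes of the cell cycle, 5 housekeeping assays and 7 control wells. The authors' Ct and ΔCt tables are deposited as averages per gene and sample and are on a log2 scale. Relative levels, as the authors deposited them, are a ratio to the reference genes (2 raised to −ΔCt). The authors' fold tables are ratios too and were not used. For the maker's software no version is given in the sources used here. Differences in −ΔCt were fitted with limma 3.58.1 in R 4.3.3 (3 residual and 4.33 prior degrees of freedom), with no replicate block. Same-numbered samples did not deviate together (correlations of −0.258, −0.105 and −0.041 across genes), and were not treated as pairs. The licensing genes, the gene lists and the profile measure that names 5 further genes were chosen with earlier results of these data known, and 1 of those 5 is not reported here. With 2 samples against 2, an exact permutation test cannot give a p under 0.333. Symbols were matched by RefSeq accession (84 of 84, 83 with the same symbol), and promoters come from RefSeq on GRCh38.p14. Alternatives changed the reference, the Ct limit, the samples, the block or the test. B2M left out of the reference was added after seeing the data.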

Additional observations from a re-analysis of the deposited data

How the results depend on the processing

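With SPHK1-I against vehicle, 5 licensing genes were lower. The count was 0 with RPLP0 alone as reference (0 of the 84 genes lower) or the methods' t-test after adjustment (0 of 84 in either direction). It was 4 (without MCM5) with ACTB, GAPDH or HPRT1 alone (15, 4 and 7 of 84 lower) or with B2M left out of the reference (9 of 84 lower). With SPHK2-I against vehicle the count of 1 became 0 with ACTB or HPRT1 alone (7 and 9 of the 84 genes lower) and 5 with B2M alone (56 of 84 lower). It became 3 with only the groups compared (42 of 84 lower) and 2 with the methods' t-test unadjusted (41 of 84 in either direction). Between the inhibitors the count of 4 became 1 with GAPDH alone (6 of the 84 genes higher), with B2M left out of the reference (8 of 84 higher) or with the replicate block (6 of 84 higher). It became 0 with RPLP0 alone (0 of 84 higher), and with only the groups compared or the adjusted t-test (each 0 of 84 in either direction). It became 2 with Ct limited to 30 (7 of 75 genes higher) or with the unadjusted t-test (18 of 84 in either direction). In each comparison the calls also depended on single samples, as described above. The replicate block left 5 and 1 calls in the comparisons with vehicle. The cause of these losses was not tested.

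No change of a licensing gene turned its direction with SPHK1-I or between the inhibitors under the alternatives run. With SPHK2-I against vehicle, ACTB alone gave 0.14 for MCM2, 0.034 for MCM3, 0.35 for MCM5 and 0.36 for CDC6. HPRT1 alone gave 0.11 for MCM2, 0.32 for MCM5 and 0.32 for CDC6, and the median gene as reference gave 0.094 for MCM5 and 0.10 for CDC6. Among the ratios to the other 4 genes, those that turned had not passed in the main fit. With Ct limited to 30, MCM4 had 0.13 with SPHK1-I and MCM3 had 0.064 between the inhibitors. When 1 sample was left out, MCM2 ran from −0.15 to 0.067 with SPHK1-I, from −0.090 to 0.13 with SPHK2-I and from −0.039 to 0.17 between the inhibitors, where MCM3 ran from −0.092 to 0.017 and MCM5 from −0.31 to 0.077. The number of samples, 2 per group, limits the precision.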
